A study of Mus musculus with 6 samples.

Results

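The genes described here encode the working parts of the lysosome: proteases, glycosidases and sulfatases, enzymes and carriers of lipid breakdown, membrane proteins, and the proton pump. They were taken from a list of 43 gene symbols, matched by symbol or synonym to the probe sets of the deposited table, and 41 of the 43 were measured among 16387 named genes. Cd63, a tetraspanin of late endosomes, and Atp6v0c, the proteolipid subunit of the pump, had no named probe set and were not analysed here. The 41 genes fall into 10 cathepsins and other peptidases, 12 glycosidases and sulfatases, 7 genes of lipid handling, 5 membrane proteins with progranulin, and 7 subunits or accessory proteins of the vacuolar H+-ATPase (V-ATPase).

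Expression was measured on 6 Affymetrix arrays of RAW264.7, an established mouse macrophage line. In 1 arm the cells were a blasticidin-resistant clone (clone 3) that carried the empty pEF6/V5-His vector, and in the other a blasticidin-resistant clone (clone 8) that carried the same vector with an Ms4a8a cDNA. Ms4a8a is a relative of CD20 in the membrane-spanning 4A family. Both clones were cultured for 48 h in the same serum-containing medium, and each was represented by 3 arrays whose titles are numbered 1 to 3. Each arm is a single clone, so the transgene and the clone cannot be told apart. Nothing in the sources says that the 3 arrays of an arm are from independent cultures. The p-values cover only the spread among them, and that spread may be technical.

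Lysosomes are acidic organelles in which hydrolases delivered from the Golgi break down endocytosed, phagocytosed and autophagic material. The V-ATPase pumps protons into the lumen, membrane proteins such as LAMP1 and LAMP2 shield the limiting membrane, and other membrane proteins carry products out. Macrophages are rich in lysosomes. The MiT/TFE family of transcription factors comprises TFEB, TFE3, MITF and TFEC. Of these, TFEB, TFE3 and MITF are known to switch on many lysosome genes through E-box sequences, called CLEAR elements, in their promoters.

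The transfected gene, Ms4a8a, was looked at first as a check of the labels. Its log2 level was 3.07, 3.32 and 3.22 on arrays 1, 2 and 3 of the vector clone, against 7.40, 7.90 and 8.15 on those of the Ms4a8a clone. The clones did not overlap. The label of the cells was looked at through marker lists: 10 of 12 macrophage markers had a mean level above that of the median gene, whereas 0 of 9 lymphocyte, 0 of 9 granulocyte and mast cell, and 0 of 10 fibroblast and epithelial markers did, with mean log2 levels of those 3 lists between 2.83 and 5.69. The arrays numbered 3 stood apart from numbers 1 and 2 in both clones. Arrays of the same number deviated together from their clone means, with correlations across all genes of 0.709, 0.809 and 0.865 at numbers 1, 2 and 3. Vector array 1 with Ms4a8a array 2 gave 0.713, and vector array 2 with Ms4a8a array 1 gave 0.617. Deviations within a clone sum to 0 and number 3 is far apart, so these values cannot show that numbers 1 and 2 pair. What the numbers stand for is not given in the sources used here. Each comparison of the clones is therefore given at each number as well as overall.

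The promoter sequences of some of these genes carry the E-box of the CLEAR type, and these are shown because their genes rank among the members discussed below. RefSeq promoter windows (mouse GRCm38.p6, from 250 bases before to 50 bases after the start) were at hand for 34 of the 41 genes. The 7 without one were Ctsb, Ctsh, Galns, Npc1, Asah1, Atp6v1h and Atp6v1b2. Each window was searched on both strands. The 8-base palindrome TCACGTGA, which contains the E-box CACGTG, was found in 6 of 34 members (17.6%), against 1.69% of the 13080 named genes with a window. One 30-base stretch is printed for each of the 6 genes, on the strand of the gene, with TCACGTGA in capitals.
Ctsa, chr2:164833749-164833778, plus strand: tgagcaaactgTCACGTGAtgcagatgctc
Ctsd, chr7:142387908-142387937, minus strand: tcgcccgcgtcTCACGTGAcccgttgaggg
Gla, chrX:134601215-134601244, minus strand: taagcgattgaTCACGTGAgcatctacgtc
Mcoln1, chr8:3500462-3500491, plus strand: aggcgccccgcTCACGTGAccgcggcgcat
Atp6v0d1, chr8:105566050-105566079, minus strand: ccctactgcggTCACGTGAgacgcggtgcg
Atp6v1a, chr16:44139373-44139402, minus strand: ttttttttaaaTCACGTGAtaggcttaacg
The windows of Ctsa and Gla each held a second copy of it. The full 10-base CLEAR palindrome, the strictest form searched, was found in 0 of 34 members and 0.558% of all genes, and the plain E-box CACGTG in 11 of 34 members (32.4%) and 10.4% of all genes.

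A related sequence, the M-box TCATGTGA, is a known binding sequence of MITF and does not contain CACGTG. It was found on either strand in 5 of 34 members (14.7%), against 1.00% of all genes. These were Ctss, Tpp1, Gla, Ppt1 and Grn, and the 4 of them without the palindrome are printed on the strand of the gene with the M-box, or its reverse complement TCACATGA, in capitals.
Ctss, chr3:95526793-95526822, plus strand: ttgtggatgctTCATGTGAcaagctccgat
Tpp1, chr7:105752213-105752242, minus strand: ccagaccatgcTCATGTGActtatcacatg
Ppt1, chr4:122836229-122836258, plus strand: agtccccgcggTCATGTGAttgctaagatg
Grn, chr11:102430285-102430314, plus strand: tgattctctaaTCACATGAtccctagaaat
The window of Tpp1 held a second copy on the other strand, partly visible in lower case at the end of its stretch. A match describes these letters in the window and does not show that a factor binds there.

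The largest differences among the lysosome genes ran between the arrays numbered 3 and the others, in both clones. Of the 41 genes, 29 were higher and 1 was lower on the number 3 arrays (limma on all genes with a term for the clone, Benjamini-Hochberg adjusted p under 0.05), where 17.8% of all named genes were higher and 19.9% were lower. The median difference over the 41 genes was 0.88 on the log2 scale, and over all named genes it was -0.03. With the replicate numbers as separate terms, 30 members were higher, where 17.3% of all genes were. The number 3 arrays lay above all 4 others in both clones for 30 members and below them for 1, against 22.3% and 28.4% of all genes. The number is a label without a known condition, and number 3 was known to stand apart when this contrast was set. The p-values therefore set the differences against the spread among the arrays and do not test a treatment.

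**Figure D1:**
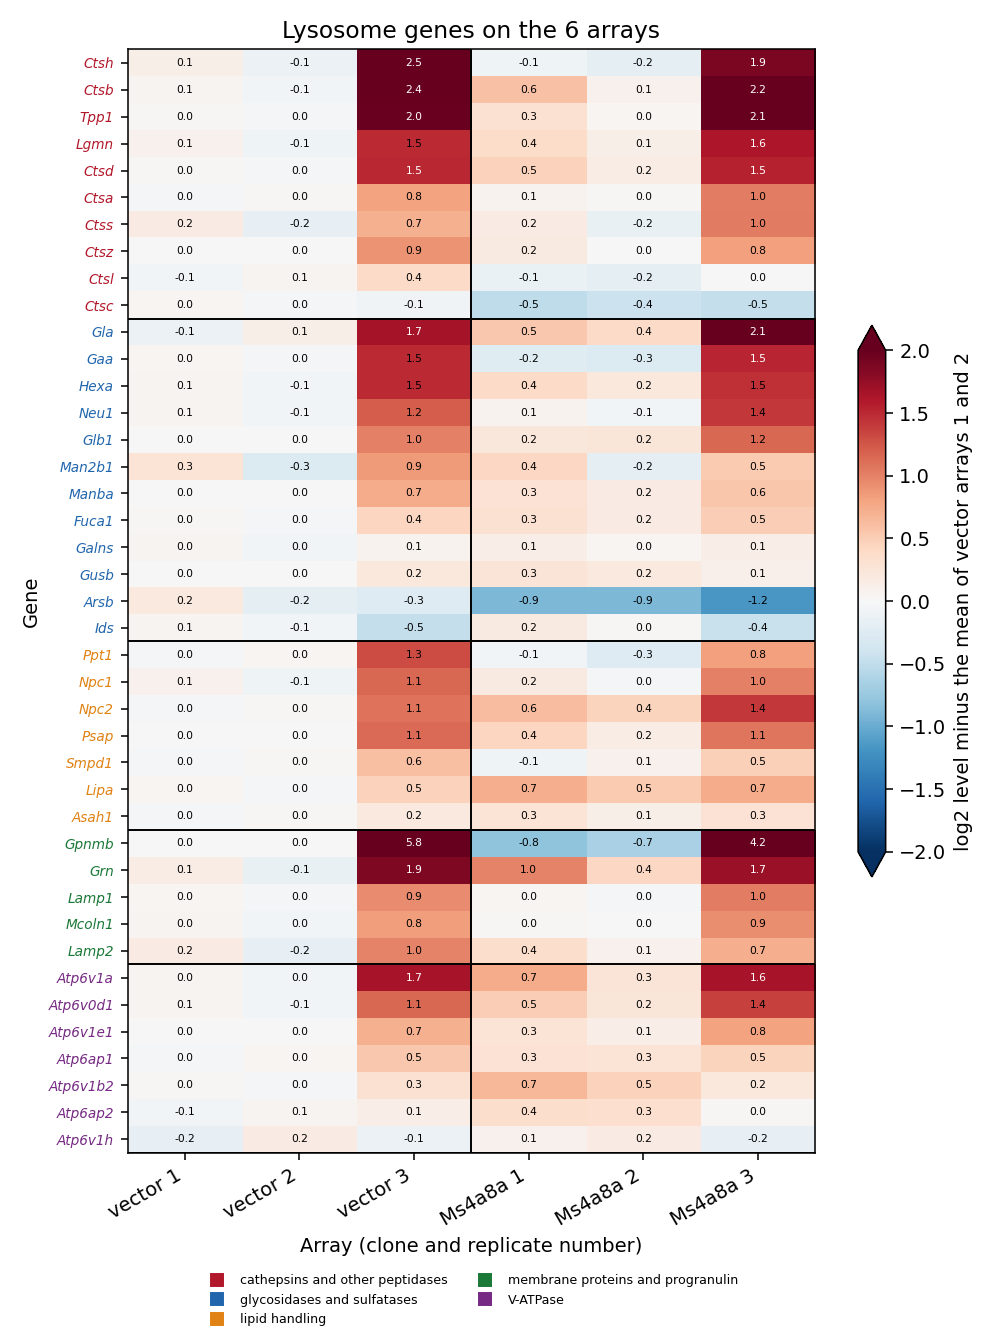
Log2 level of each of the 41 lysosome genes on each of the 6 arrays, minus the mean of vector arrays 1 and 2, by sub-group; the colour scale stops at 2 and each cell prints its own value. Both number 3 columns are red for most genes, Ctsc and Arsb are blue on every Ms4a8a array, and Gpnmb has the highest cell.

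Gpnmb, a transmembrane glycoprotein of macrophage phagosomes and lysosomes, had the largest number 3 difference of the 41 genes. In order of number, its log2 level was 6.33, 6.36 and 12.11 in the vector clone against 5.54, 5.69 and 10.56 in the other. Array 3 was far above arrays 1 and 2 in each clone, with no overlap. The shift was 54.4-fold for the vector clone, against 30.8-fold for the Ms4a8a clone, and the fitted difference was 5.36 on the log2 scale (SE 0.17, adjusted p = 1.3e-05).

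Among the peptidases, 8 of 10 were higher on the number 3 arrays, with a median difference of 1.13 on the log2 scale. Ctsh, a cathepsin with aminopeptidase activity, had the largest difference of this group. Log2 levels were 3.88, 3.65 and 6.25 for the vector clone against 3.69, 3.59 and 5.65 for the Ms4a8a clone. These are low: all but that of vector array 3 lay below 5.94, the median log2 level over all probe sets. Both number 3 arrays lay above all the others, and the difference was 2.25 (SE 0.13, adjusted p = 4.5e-05). Ctsd, the main aspartic protease of the lysosome, was at 11.32, 11.27 and 12.80 on the vector arrays and at 11.75, 11.45 and 12.84 on the Ms4a8a arrays. The number 3 arrays were again the highest, and the difference was 1.37 (SE 0.11, adjusted p = 0.00014). The other 6 that passed had differences of 2.16 for Ctsb, a cysteine protease, 1.94 for Tpp1, a tripeptidyl peptidase, 1.44 for Lgmn, an asparaginyl endopeptidase that processes cathepsins, 0.89 for Ctsa, a carboxypeptidase that protects sialidase and beta-galactosidase, 0.87 for Ctss, which trims the invariant chain of MHC class II, and 0.81 for Ctsz, a carboxypeptidase.

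Ctsc and Ctsl did not pass. Ctsc, the dipeptidyl peptidase that activates granule serine proteases, was at 10.02, 9.93 and 9.90 on the vector arrays and at 9.46, 9.54 and 9.49 on the Ms4a8a arrays. Array 3 was the lowest in the vector clone and the middle one in the Ms4a8a clone, with a difference of -0.04 and a 95% interval from -0.22 to 0.14. Ctsl, a cysteine endopeptidase, had a difference of 0.27 (95% interval from 0.06 to 0.47, adjusted p = 0.051).

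Of the 12 glycosidases and sulfatases, 7 were higher and 1 was lower, with a median difference of 0.59 on the log2 scale. Gla, the alpha-galactosidase that degrades globotriaosylceramide, had the largest difference. The vector arrays were at log2 levels of 6.18, 6.42 and 7.96, and those of the Ms4a8a clone at 6.84, 6.68 and 8.40. The number 3 arrays did not overlap the others, and the difference was 1.65 (SE 0.10, adjusted p = 4.6e-05). Gaa, which degrades glycogen, differed by 1.64, Hexa, the alpha subunit of beta-hexosaminidase, by 1.33, Neu1, a sialidase, by 1.31, and Glb1, a beta-galactosidase, by 0.96. Manba, a beta-mannosidase, and Fuca1, an alpha-fucosidase, passed with 0.53 and 0.35, but not without vector array 3 (0.33 and 0.26).

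Ids, the iduronate sulfatase of heparan and dermatan sulfate breakdown, was the 1 member that was lower on the number 3 arrays. In order of number, its log2 level was 6.89, 6.79 and 6.37 in the vector clone against 7.02, 6.87 and 6.40 in the other. Both number 3 arrays lay below all the others, and the difference was -0.51 (SE 0.08, adjusted p = 0.0026). The 4 enzymes of this group that did not pass were Gusb, a beta-glucuronidase, with 0.04, Galns, a sulfatase of keratan sulfate, with 0.05, Arsb, a sulfatase of dermatan and chondroitin sulfate, with -0.26, and Man2b1, an alpha-mannosidase. For Man2b1 the difference was 0.64 (SE 0.22, adjusted p = 0.057), and it passed with the numbers as separate terms (adjusted p = 0.0074).

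In lipid handling, 5 of 7 genes were higher, with a median difference of 0.96 on the log2 scale. Ppt1, which removes palmitate from proteins, had the largest difference. Log2 levels were 11.23, 11.30 and 12.57 for the vector clone against 11.20, 11.01 and 12.08 for the Ms4a8a clone. The number 3 arrays were above all the others, and the difference was 1.14 (SE 0.10, adjusted p = 0.00021). The cholesterol carriers of the lysosomal membrane and lumen, Npc1 and Npc2, differed by 1.04 and 0.98, Psap, the precursor of the sphingolipid activator proteins, by 0.96, and Smpd1, the acid sphingomyelinase, by 0.54. Asah1, the acid ceramidase, had the smallest difference of this group, with levels of 10.80, 10.84 and 11.01 for the vector clone against 11.09, 10.93 and 11.11 for the Ms4a8a clone. The numbers overlapped, and the difference of 0.15 did not pass (95% interval from -0.05 to 0.34, adjusted p = 0.22). Lipa, the acid lipase that frees cholesterol from its esters, did not pass with 0.29 (95% interval from 0.03 to 0.54, adjusted p = 0.079).

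All 5 measured membrane proteins with progranulin were higher, with a median difference of 0.98 on the log2 scale. Lamp1, an abundant glycoprotein of the lysosomal membrane, was at 12.29, 12.23 and 13.21 on the vector arrays and at 12.29, 12.22 and 13.28 on the Ms4a8a arrays. The clones were within 0.07 of each other at every number, and the number 3 difference was 0.98 (SE 0.08, adjusted p = 0.00011). Lamp2, its relative with a role in chaperone-mediated autophagy, had the smallest difference of this group, with levels of 10.71, 10.38 and 11.54 for the vector clone against 10.89, 10.62 and 11.27 for the Ms4a8a clone. The number 3 arrays were the highest, and the difference was 0.75 (SE 0.15, adjusted p = 0.0068), or 0.51 without vector array 3 (adjusted p = 0.082). Mcoln1, a calcium channel of the lysosomal membrane, differed by 0.88 and Grn, which encodes progranulin, by 1.44.

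Of the 7 V-ATPase genes, 4 were higher and 3 did not pass, with a median difference of 0.36 on the log2 scale. Atp6v1a, the catalytic subunit, was at 10.42, 10.32 and 12.02 on the vector arrays and at 11.11, 10.62 and 12.01 on the Ms4a8a arrays. The number 3 arrays were the highest, and the difference was 1.40 (SE 0.16, adjusted p = 0.00059). Atp6v0d1, a subunit of the membrane sector, differed by 1.07, Atp6v1e1, of the peripheral stalk, by 0.66, and the accessory protein Atp6ap1 by 0.36 (adjusted p = 0.028, and from 0.053 to 0.27 in the 4 cases where leaving out 1 array ended the call). Atp6v1h, a regulatory subunit of the cytosolic sector, was at 9.94, 10.26 and 9.99 on the vector arrays and at 10.20, 10.27 and 9.94 on the Ms4a8a arrays. Its numbers overlapped, and the difference was -0.20 (95% interval from -0.46 to 0.06). The nucleotide-binding subunit Atp6v1b2 had a difference of -0.02 and the accessory protein Atp6ap2, which is also the prorenin receptor, one of -0.09, and neither passed.

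**Figure D2:**
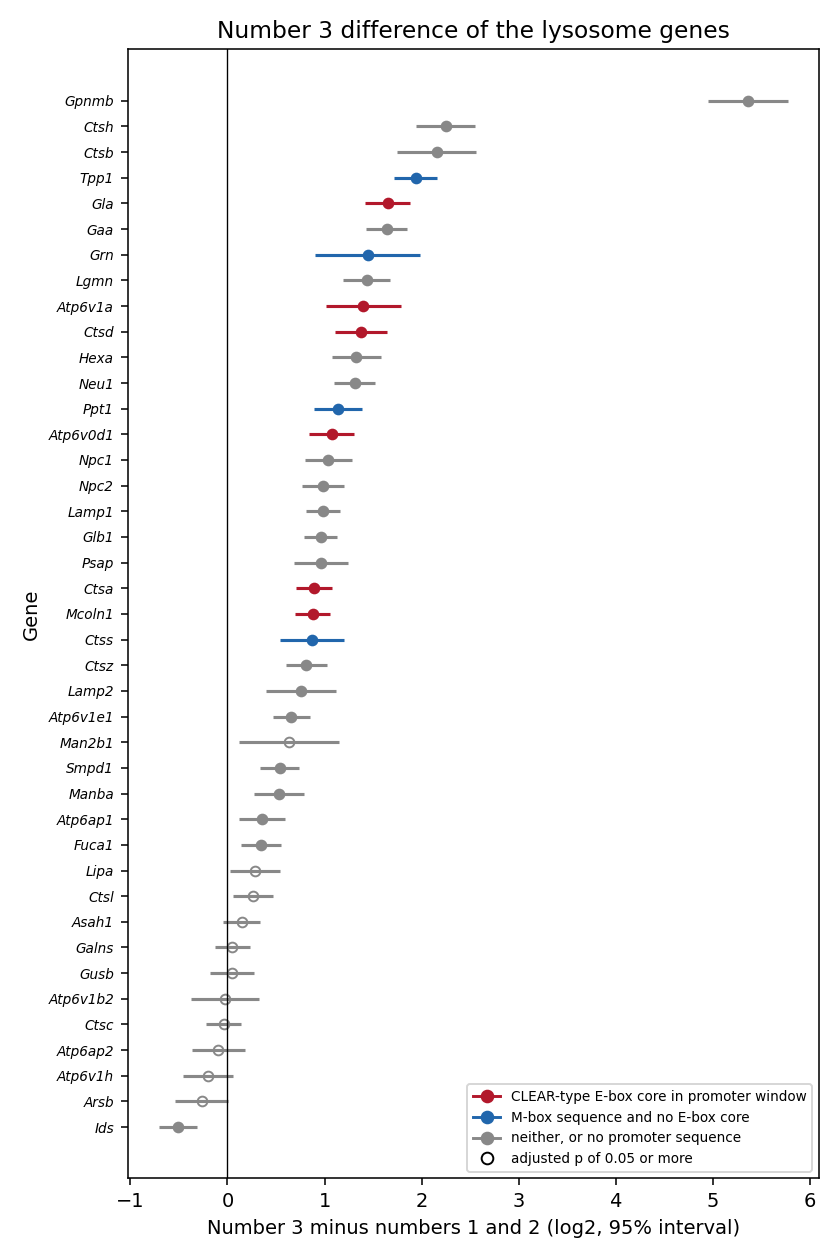
Difference between the number 3 arrays and the arrays numbered 1 and 2 for each of the 41 genes on the log2 scale, with 95% intervals from limma; filled points passed an adjusted p of 0.05 and colours mark the promoter sequences found. Gpnmb stands alone at 5.36, Ids is the filled point below 0, and every coloured point is filled and above 0.

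All 6 genes with TCACGTGA in the promoter window, printed above, were higher on the number 3 arrays, as were 20 of the 28 members with a window but without this sequence. The median differences were 1.22 and 0.78 on the log2 scale. All 5 genes with the M-box were higher too, as were 21 of the 29 without it. Over all named genes with TCACGTGA in the window, 29.4% were higher at number 3, and over those with the M-box 26.7% were. With the plain E-box CACGTG, 22.1% of genes and 10 of 11 members were higher. Of all named genes, with or without a window, 17.8% were. A part of these sequences in the number 3 differences was not tested. Ctsb and Ctsh, which follow Gpnmb in the size of the difference, have no window in the table used, and that of Gpnmb held neither sequence.

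The shift at number 3 had a like median in the clones, which share no array in this comparison. Over the 41 genes it was 0.89 for the vector clone, against 0.88 for the Ms4a8a clone. In the same order, medians were 1.20 and 1.14 for the peptidases and 1.00 and 1.02 for the membrane proteins with progranulin. They were further apart for the glycosidases and sulfatases (0.80 and 0.37), lipid handling (1.09 and 0.78) and the V-ATPase (0.54 and 0.17). The shift was positive in both clones for 34 genes, negative in both for 4 and opposite for 3. Across the 41 genes, which are not independent replicates, the shifts of the clones correlated with r = 0.966, or 0.932 without Gpnmb, where r was 0.865 across all named genes. The points share the table's common normalisation and the pairing of array numbers.

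**Figure D3:**
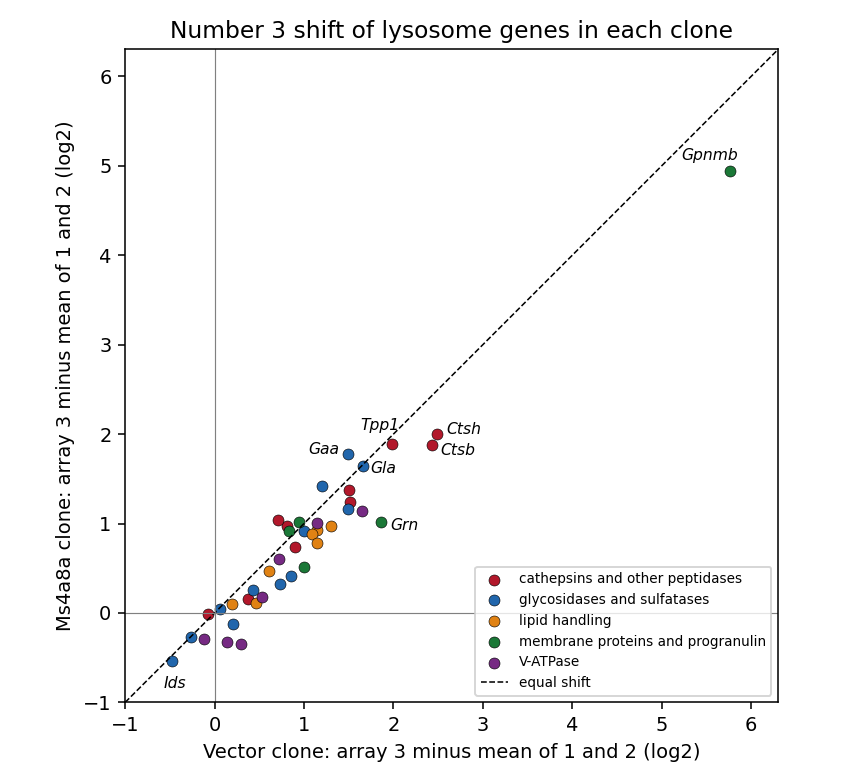
Shift of each of the 41 genes at number 3 (array 3 minus the mean of arrays 1 and 2, log2) in the vector clone on the horizontal axis and the same in the Ms4a8a clone on the vertical axis, coloured by sub-group, with the line of equal shift. Most points lie near the line and 34 lie below it, with Gpnmb at 5.77 and 4.95.

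The shift was numerically lower, meaning less positive or more negative, in the Ms4a8a clone for 34 of the 41 genes. The median difference between the clones' shifts was -0.18 on the log2 scale, where the median over all named genes was 0.01. All 7 genes of lipid handling and all 7 V-ATPase genes were among the 34. No member passed the test of this interaction (limma, 0 of 41, where 0.458% of all genes passed), and 0 passed with the replicate numbers as separate terms, where 1.33% did. At an unadjusted p under 0.05, 6 members had a lower shift and 0 a higher one in the Ms4a8a clone, where 6.06% and 5.48% of all genes did. With the numbers as separate terms, 11 members had a lower shift and 0 a higher one, where 7.82% and 7.27% of all genes did. The lowest adjusted p was that of Gpnmb, with a difference of -0.82 (SE 0.16, adjusted p = 0.13, and 0.070 with the numbers as separate terms). The next was Atp6v1b2 with -0.65 (SE 0.17, adjusted p = 0.25).

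Other gene groups moved with number 3. All 27 measured proliferation genes were called lower on the number 3 arrays, where 19.9% of all named genes were. Their median difference was -1.79 on the log2 scale, at -1.31 for the vector clone against -2.09 for the Ms4a8a clone. The log2 of their summed level was 15.8, 15.8 and 14.5 for the vector clone, against 15.7, 15.7 and 13.5 for the Ms4a8a clone. Of the 12 macrophage markers, 8 were called higher and 0 lower at number 3, where 17.8% and 19.9% of all named genes were. The log2 of the summed level of these markers was between 15.3 and 15.5 on arrays 1 and 2, against 15.9 and 16.0 on the number 3 arrays. The summed log2 levels of the markers of other cells stayed between 7.41 and 7.54 for lymphocytes, 7.38 and 7.57 for granulocytes and mast cells, and 6.94 and 7.11 for fibroblasts and epithelium. The part of growth state or macrophage content in the lysosome differences was not tested, and in bulk RNA fewer cells of a type and less RNA per cell cannot be told apart.

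Between the clones, few lysosome genes passed an adjusted test. Without a term for the number, 0 of 41 members passed the comparison of the clones (limma, all 6 arrays), where 0.0427% of all genes passed, and at an unadjusted p under 0.05 there were 1 higher and 2 lower members in the Ms4a8a clone, where 278 of all 16387 genes were higher and 246 lower at that p. With the replicate number as a block, 1 of 41 passed, where 0.909% of all genes passed. This was Arsb, in the direction in which 0.452% of all genes were called. The clones did not overlap for 3 members, of which 1 (Lipa) lay above in the Ms4a8a clone and 2 (Arsb and Ctsc) below, against 3.89% and 3.99% of all genes. The member counts are near those shares, so the lack of overlap does not set these genes apart from others.

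Arsb, the sulfatase that removes sulfate from N-acetylgalactosamine in dermatan and chondroitin sulfate, was lower in the Ms4a8a clone at every number. The vector arrays were at log2 levels of 9.96, 9.57 and 9.50, and those of the Ms4a8a clone at 8.87, 8.86 and 8.60. All Ms4a8a arrays lay below all vector arrays. The difference was -0.90 on the log2 scale, a 1.87-fold lower level. Its adjusted p was 0.53 without the block (SE 0.16) and 0.021 with it (SE 0.10, 95% interval from -1.14 to -0.67).

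Ctsc and Lipa also separated the clones without passing an adjusted test on all arrays. Ctsc, whose levels are given above, had a difference of -0.45 on the log2 scale, lower in the Ms4a8a clone (SE 0.08, blocked adjusted p = 0.078). Lipa was at 10.45, 10.37 and 10.87 on the vector arrays and at 11.14, 10.94 and 11.15 on the Ms4a8a arrays. The highest vector array lay just below the lowest Ms4a8a array, and the difference was 0.51 (SE 0.16, blocked adjusted p = 0.097). Npc2 was at 11.67, 11.73 and 12.79 against 12.32, 12.14 and 13.11, which overlap because number 3 is high in both clones. Its difference was positive at every number and came to 0.46 (SE 0.40, blocked adjusted p = 0.10).

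Gpnmb was lower on the Ms4a8a array at every number, with differences of -0.79, -0.67 and -1.55 at numbers 1, 2 and 3 on the log2 scale. The clones overlap over all arrays, because both number 3 arrays lie far above the rest, and the mean of these differences did not pass with the block (95% interval from -1.43 to -0.57, adjusted p = 0.079). Ctsd, with the largest positive clone difference among the peptidases, differed by 0.22 (SE 0.55). Gla, with the largest positive difference among the glycosidases, differed by 0.45 (SE 0.65, blocked adjusted p = 0.12). Ppt1, with the lowest difference in lipid handling, differed by -0.27 (SE 0.46). In these 3 the clones overlapped.

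**Figure D4:**
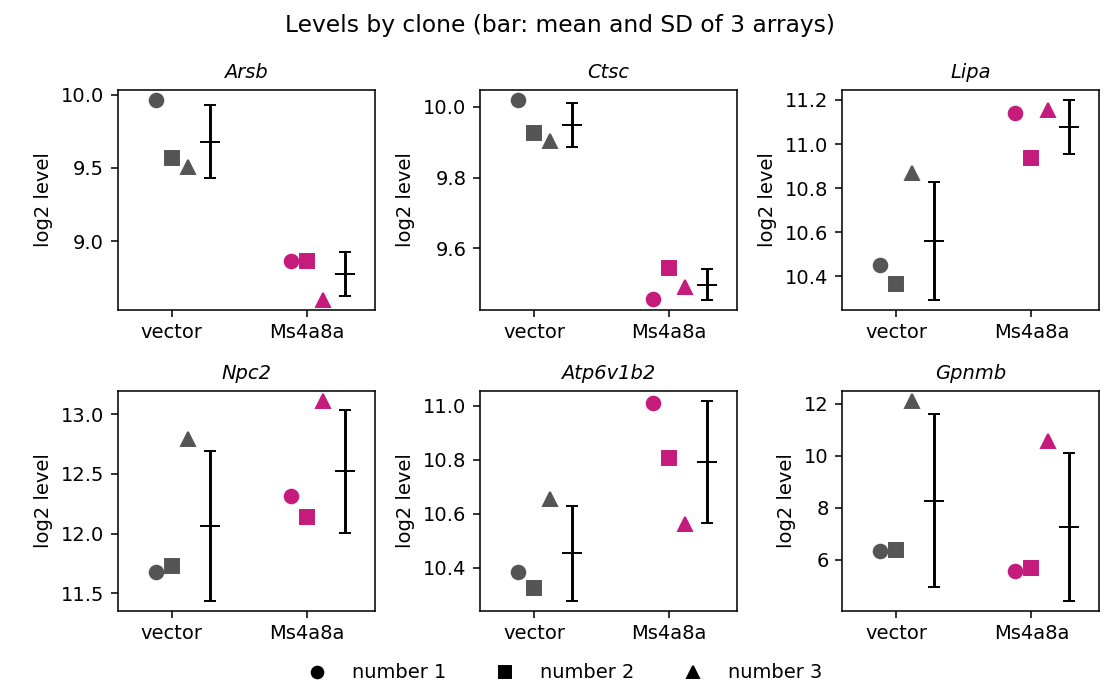
Log2 level of 6 lysosome genes on each array by clone, with the mark's shape giving the replicate number and the bar the mean and SD of the 3 arrays; each panel has its own axis. The clones are apart for Arsb, Ctsc and Lipa, and for Npc2 and Gpnmb the number 3 arrays (triangles) lie above the other arrays of their clone.

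Small positive differences were frequent: 32 of the 41 members had a higher mean in the Ms4a8a clone and 9 a lower one, where 48.4% of all named genes had a higher mean. Their median difference was 0.11 on the log2 scale, against -0.0049 over all named genes. Leaving out both arrays of a number gave medians of 0.08 without number 1, 0.12 without number 2 and 0.19 without number 3. Leaving out 1 array, which makes the numbers unequal between the clones, turned the sign in 3 of 6 cases. It was -0.02 without vector array 1, -0.05 without vector array 2 and -0.17 without Ms4a8a array 3, and it was 0.37 without vector array 3.

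The clones were also compared at each number. At number 1 the Ms4a8a array was higher for 30 of the 41 genes, with a median difference of 0.26 on the log2 scale, where 46.3% of all genes were higher. At number 2 it was higher for 31 genes with a median of 0.10, where 47.5% of all genes were higher. At number 3 it was higher for 19 genes with a median of -0.03, where 51.8% of all genes were higher. Single arrays are compared here, so no test was made at a given number.

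The proliferation genes differed between the clones too. Of the 27 measured, 26 had a lower mean in the Ms4a8a clone and 0 passed the clone test, with a median difference of -0.37 on the log2 scale. The median was -0.13, -0.09 and -0.95 at numbers 1, 2 and 3. The interaction called 7 of the 27, where 0.458% of all genes were called, and 9 with the numbers as separate terms, where 1.33% were. Each of these fell further at number 3 in the Ms4a8a clone. The part of the proliferation genes in the clone differences of the lysosome genes was not tested.

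All 7 V-ATPase genes were higher on the Ms4a8a array at numbers 1 and 2, with medians of 0.41 and 0.28 on the log2 scale, and 2 of 7 were higher at number 3, with a median of -0.05. The change at number 3 was called for 0 of the 7 in the interaction test (lowest adjusted p = 0.25, and 0.13 with the numbers as separate terms), and 9 of the 14 other V-ATPase genes measured were higher on the Ms4a8a array at number 3. Atp6v1b2, with the largest clone difference of the group, was at 10.38, 10.32 and 10.65 on the vector arrays and at 11.01, 10.81 and 10.56 on the Ms4a8a arrays. The Ms4a8a array was above the vector array at numbers 1 and 2 and below it at number 3. Over all arrays its difference was 0.34 (SE 0.15, blocked adjusted p = 0.40).

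Grn followed the same order in the group of membrane proteins. In order of number, its log2 level was 11.37, 11.08 and 13.09 in the vector clone against 12.21, 11.64 and 12.95 in the other. The clone difference was 0.85 and 0.56 at numbers 1 and 2 and -0.14 at number 3. In the other groups the medians at numbers 1, 2 and 3 were 0.14, 0.01 and -0.02 for the peptidases, 0.18, 0.12 and 0.03 for the glycosidases and sulfatases, 0.29, 0.10 and -0.07 for lipid handling, and 0.00, 0.06 and -0.14 for the membrane proteins with progranulin.

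**Figure D5:**
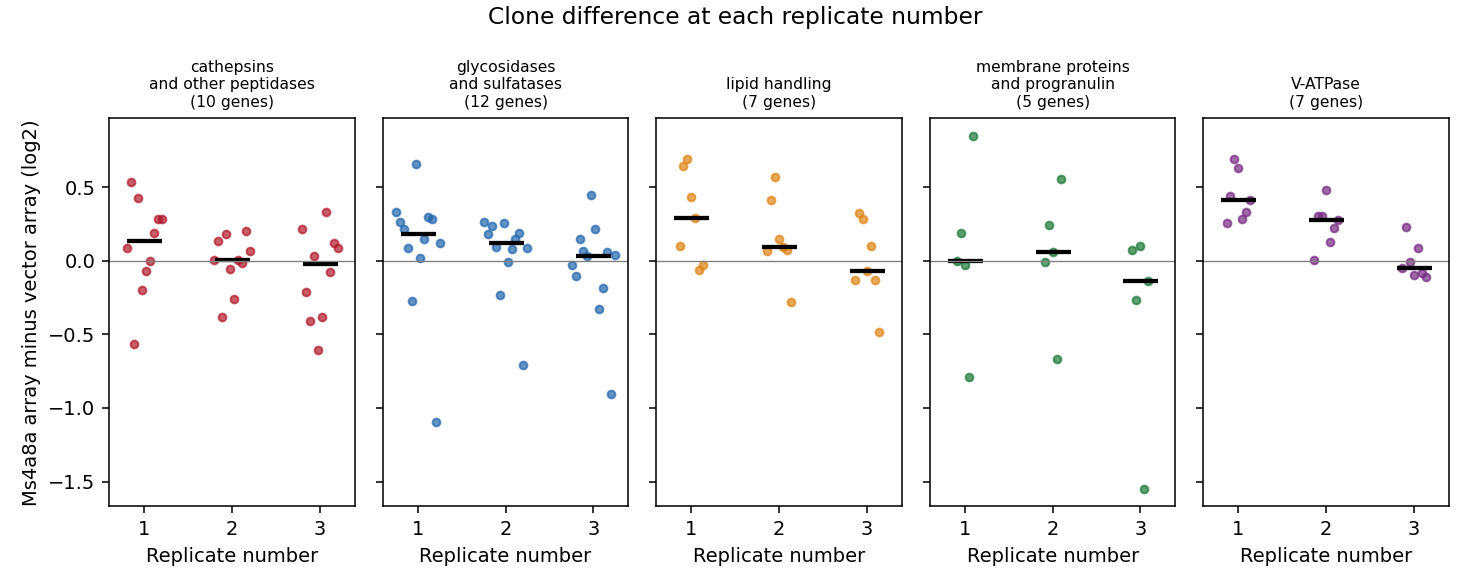
Clone difference (Ms4a8a array minus vector array, log2) of each lysosome gene at each replicate number, 1 panel per sub-group; each point is 1 gene and the black bar the group median. The numbers are labels without an order; all 7 V-ATPase genes lie above 0 at numbers 1 and 2, and 2 of 7 do at number 3.

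On the 4 arrays numbered 1 and 2 alone, 1 member passed the comparison of the clones, where 0.897% of all genes passed. This was Gpnmb, with a difference of -0.73 on the log2 scale (adjusted p = 0.031). With the number as a block on these 4 arrays, 5 members passed, where 2.65% of all genes passed. Arsb (-0.90, adjusted p = 0.018) and Gpnmb (adjusted p = 0.014) were lower in the Ms4a8a clone. Lipa (0.63, adjusted p = 0.022), Grn (0.70, adjusted p = 0.026) and Atp6v1b2 (0.55, adjusted p = 0.034) were higher. The 4 arrays were chosen after number 3 was seen to stand apart. Of these 5 genes, Grn and Atp6v1b2 had a clone difference of the opposite sign at number 3.

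A further 122 of 141 listed lysosome genes were measured for comparison. At number 3, 59 of them were higher and 14 were lower, with a median difference of 0.32 on the log2 scale. Of all named genes, 17.8% were higher and 19.9% were lower, shares that also apply to the sub-group counts that follow. Other hydrolases and their activators had 21 higher and 2 lower of 36, and other membrane proteins and transporters had 21 higher and 3 lower of 36. The other V-ATPase genes, many of them subunits with several isoforms, had 3 higher and 2 lower of 14, with a median of -0.08. Genes of enzyme sorting and protease inhibition had 7 higher and 1 lower of 15, and the MiT/TFE factors with the mTORC1 scaffold of the lysosomal surface had 7 higher and 6 lower of 21.

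Among the factors themselves, Tfe3 was higher at number 3 by 0.45 on the log2 scale (SE 0.09, adjusted p = 0.0068) and Tfeb was lower, with a difference of -0.25 (SE 0.08, adjusted p = 0.043). Mitf had a number 3 difference of 0.17 (SE 0.16) and Tfec one of -0.42 (SE 0.28), and neither passed. Tfec was the 1 of the 122 other lysosome genes that passed the comparison of the clones with the block, a share near the 0.909% of all genes. Log2 levels were 3.87, 3.44 and 3.84 for the vector clone against 6.92, 6.40 and 5.64 for the Ms4a8a clone. The clones did not overlap, and the difference was 2.60 (SE 0.34, adjusted p = 0.25 without and 0.014 with the block). Of all 122 genes, 91 had a higher mean in the Ms4a8a clone, with a median difference of 0.09, where 48.4% of all named genes had a higher mean.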

How the data were processed

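Log2 expression values, 1 per probe set and array, were taken from the authors' deposited series table. Sorted by size, the 6 columns are identical, as after quantile normalisation; the summary method, background correction and software are not named by the sources at hand. The platform annotation gives exactly 1 symbol to 16387 of the 17370 probe sets and several to 0; 64 others are Affymetrix controls, and the rest have no symbol and were not used. Each named gene had 1 probe set. Symbols were set against RefSeq genes of mouse assembly GRCm38.p6 through their gene IDs: 14580 were equal, 1773 were synonyms and were replaced, 5 were neither and 29 IDs were not found. No detection call was used, so low values do not mean that a transcript is absent, and the number of arrays limits the precision. No probe set was filtered and nothing was rescaled.

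Tests were made with limma 3.58.1 in R 4.3.3 (statmod 1.5.0), with lmFit and eBayes on all named genes, two-sided, and with Benjamini-Hochberg adjustment over all 16387 at 0.05. The fits were the clones without a covariate, number 3 against 1 and 2 with a term for the clone, and their interaction. Same-numbered arrays correlated above 0.1 at every number, the limit used for treating the numbers as pairs, so fits with the replicate number as a block are given where they change a call. The vector array 1 correlated as well with Ms4a8a array 2 (0.713) as with its own number (0.709). Vector array 2 correlated with Ms4a8a array 1 at 0.617. These correlations therefore do not establish the pairing of numbers 1 and 2. A difference is Ms4a8a minus vector, or number 3 minus the mean of 1 and 2; folds are powers of 2 of it. The fits were tested on simulated data. For the clone fits these held no number 3 effect, so they do not show the power of the clone comparison here.

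The members, the gene lists, the marker lists and the tests were chosen with earlier results of these data known. Values on every array are given for members past the clone or interaction test, for the highest and lowest clone and number 3 difference in each sub-group, and for Lamp1, Ctsd and Gpnmb; Npc2 and the factors Tfe3, Tfeb and Mitf were named after their values were seen. Alternatives were the block, filters at the 25th percentile and at the median of the mean level, trended and robust eBayes, array weights, leaving out each array, and numbers 1 and 2 alone. Summed levels are of 2 to the power of the values. Promoter sequences are from RefSeq (Python 3.11.15 with pandas 2.3.3).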

Additional observations from a re-analysis of the deposited data

Results flagged for a closer look

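Arsg, a lysosomal sulfatase among the other hydrolases, was called in the test of the difference between the clones in the number 3 shift. At numbers 1, 2 and 3 it was at log2 levels of 4.52, 4.40 and 7.83 for the vector clone, against 3.41, 3.26 and 5.22 for the Ms4a8a clone. Array 3 was the highest in each clone, and the shift was smaller in the Ms4a8a clone, with a difference of -1.48 on the log2 scale (limma adjusted p = 0.041, and 0.020 with the replicate numbers as separate terms). Leaving out any 1 of the arrays numbered 1 and 2 raised the adjusted p above 0.05, to between 0.065 and 0.11, with differences between -1.56 and -1.41.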

How the results depend on the processing

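The number of members past the clone test was 0 without the block and 0 with either filter, trended and robust eBayes, array weights or any 1 array left out. It was 1 with the replicate block, 1 with the block after dropping the pair of arrays numbered 1, 1 after dropping the pair numbered 2, 1 with the block when Ms4a8a arrays 1 and 2 trade numbers (a setting added after seeing the data), 1 on numbers 1 and 2 alone and 5 on these with the block. Leaving out 1 array moved the median clone difference between -0.17 and 0.37 on the log2 scale; it was -0.05 without vector array 2, 0.37 without vector array 3 and -0.17 without Ms4a8a array 3. Leaving out an array leaves the numbers unequal between the clones. The number 3 calls were 30 in the fit reported and 26 to 32 with 1 array left out, with a median from 0.86 to 0.90, 25 members were called in all 12 settings, and Ctsh in the 11 in which it was tested; Atp6ap1, Fuca1, Manba and Lamp2 lost their calls without single arrays (Manba adjusted p = 0.066 and Fuca1 0.14 without vector array 3, and Fuca1 0.053 without Ms4a8a array 2). With the block, the adjusted p of the Arsb clone difference lay between 0.018 and 0.050. The clone difference of Gpnmb was 0.92 without vector array 3 and -2.65 without Ms4a8a array 3. The interaction called 0 members in every setting run, with medians from -0.26 to -0.12 when 1 array was left out; it could not be fitted without array 3 of either clone.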
